A study of Mus musculus with 16 samples.

Results

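PD-1int effector CD8 T cells were compared with memory CD8 T cells sorted from the spleens of leukemic mice. The members are the 4 arrays labelled as PD-1int and the 4 labelled as memory, 8 of the 16 arrays of the series, and they are described across all genes. The other 8 arrays, 4 of naive and 4 of PD-1hi cells, were used to estimate the spread and to place levels. All mice were female C57BL/6 animals that had received murine chronic lymphocytic leukemia (CLL) cells from Eµ-TCL1 mice, in which an immunoglobulin heavy-chain enhancer drives the TCL1 oncogene in B cells. RNA was taken 6 weeks after transfer, so every group carried the leukemia, and mice without leukemia were not analysed here. Cells were sorted as lineage-negative, TCRb+ and CD8+. Memory cells were CD127hi and CD44hi, PD-1int effectors were CD127low, CD44int-hi and PD-1int, naive cells were CD127hi and CD44low, and PD-1hi effectors were CD127low, CD44int-hi and PD-1hi. The sources used here do not give the age of the mice, and they do not say whether arrays come from separate or pooled animals, so p-values here rest on the spread between samples that may be technical repeats.

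CD8 T cells that have met antigen can persist as memory cells, which keep the interleukin 7 receptor (CD127) and depend on its signal for survival, or become effectors that carry granules of perforin and granzymes for killing. When antigen persists, as in chronic infection and cancer, effectors come to express PD-1 and further inhibitory receptors, with a set of transcription factors that includes TOX. This state is known as exhaustion, and PD-1 intermediate and high cells differ in how far it has gone.

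Expression is given as the deposited log2 value, on which 1 unit is a 2-fold difference, and a difference is PD-1int minus memory ± the standard error of a limma fit, with 4 arrays in each group. The words rose, fell and changed are used of a gene whose Benjamini-Hochberg adjusted p (limma) over 22180 genes was under 0.05. Of all genes, 3584 changed (16.2%), 1884 upward (8.49%) and 1700 downward (7.66%), and 319 rose (1.44%) and 266 fell (1.2%) by at least 2-fold. Without the 40% dimmest genes, 3718 of the 13308 left passed the same threshold, a larger share. The lists below are set against 16.2% only, so a list of mostly bright genes can lie above it without standing out among bright genes. The median difference over all genes was close to 0, at -0.0042, and the median standard error was 0.104. Arrays of the groups did not overlap in 4571 genes (20.6%), 2408 with PD-1int higher (10.9%) and 2163 with PD-1int lower (9.75%). Pearson r, taken across genes, averaged 0.993 among memory arrays, 0.992 among PD-1int arrays and 0.978 between them.

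**Figure D1:**
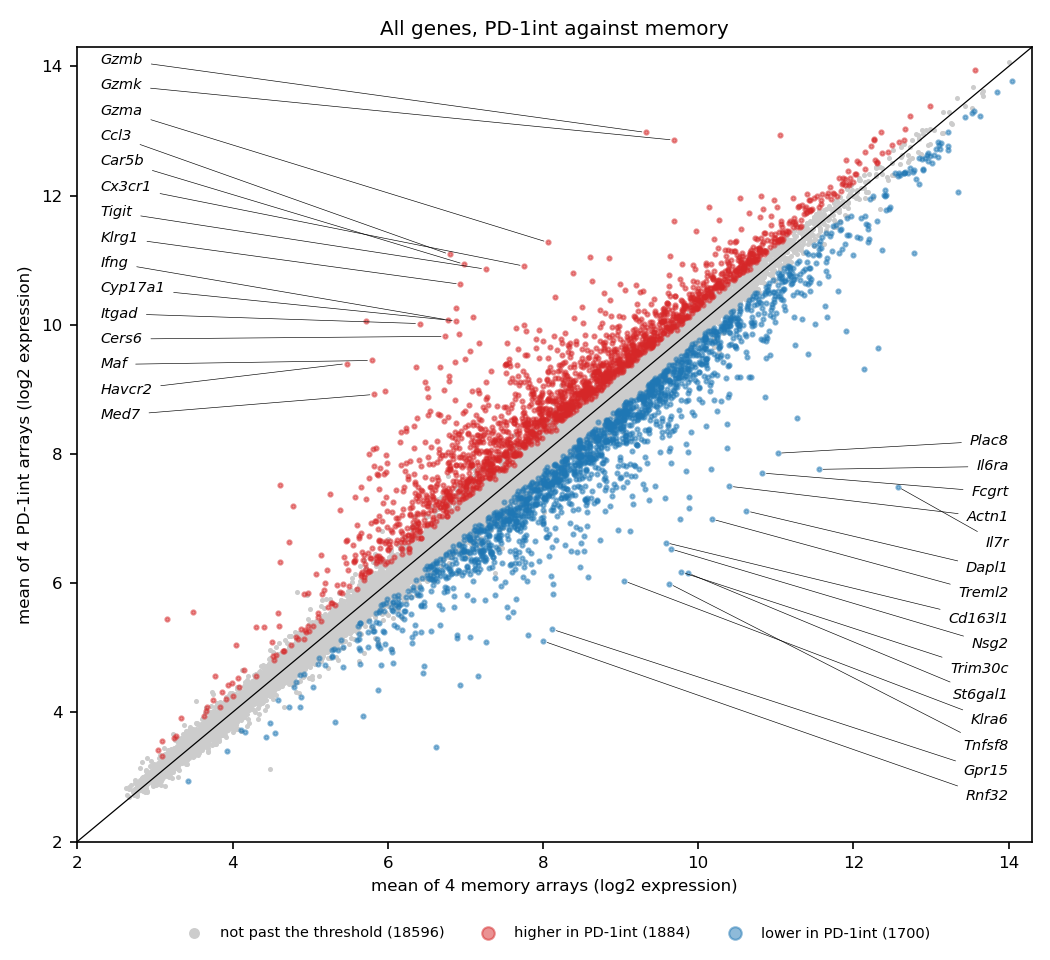
Mean log2 expression of 22180 genes, memory arrays on the horizontal axis and PD-1int arrays on the vertical axis, n = 4 each; red points rose, blue points fell and grey points did not pass the threshold. The 1884 red and 1700 blue points lie on both sides of the diagonal over the whole range of expression, and the labelled genes are those of the largest differences.

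The sort genes followed their gates, which describes the sort and is no finding. Il7r, which encodes CD127, read 12.53, 12.60, 12.67 and 12.48 on the memory arrays and 7.57, 7.91, 7.14 and 7.35 on the PD-1int arrays. Pdcd1, which encodes PD-1, read 7.02, 7.23, 7.02 and 7.14 in memory and 10.42, 9.96, 9.75 and 10.32 in PD-1int. Both genes separated the groups on every array. Cd44 read 9.13, 8.94, 8.84 and 9.06 in memory and 8.91, 8.62, 8.45 and 8.78 in PD-1int; these ranges overlapped, and the difference of -0.30 ± 0.10 had a limma adjusted p of 0.0525. Defining T-cell genes were bright in both groups. Cd8a averaged 11.65 in memory and 11.42 in PD-1int, Cd3d 12.84 and 12.87, and Thy1 10.13 and 10.05, and none of these 3 passed the test. Cd3e rose by 0.29 ± 0.06, Cd3g rose by 0.22 ± 0.07 and Cd8b1, the CD8 beta chain, fell by 0.27 on the log2 scale. The call on Cd8b1 was lost after quantile normalization (-0.18) and with a replicate block on the 8 arrays (-0.27). In sorted populations like these, fewer cells of a type and less RNA per cell cannot be told apart.

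The 15 genes with the largest rise were Ccl3, Car5b, Havcr2, Klrg1, Maf, Gzmb, Itgad, Tigit, Ifng, Gzma, Cyp17a1, Gzmk, Cx3cr1, Med7 and Cers6, with differences from 4.29 down to 3.08. They hold a chemokine, 3 granzymes, interferon gamma, a pair of inhibitory receptors, markers of effector differentiation and 3 genes of metabolism: Car5b encodes a mitochondrial carbonic anhydrase, Cers6 a ceramide synthase and Cyp17a1 a steroid hydroxylase. Car5b read 7.37, 7.03, 6.53 and 7.01 in memory and 10.94, 10.55, 11.17 and 11.09 in PD-1int, a 15.5-fold difference (limma adjusted p = 2.38e-11). Cyp17a1 read 7.08, 6.80, 6.54 and 7.12 in memory and 10.53, 9.52, 9.83 and 10.37 in PD-1int. Its level was highest in PD-1int among the 4 subsets: naive cells averaged 5.50, memory cells 6.88, PD-1int cells 10.06 and PD-1hi cells 7.05. The test of PD-1hi against PD-1int gave -3.01 ± 0.23 for Cyp17a1 (limma adjusted p = 8.78e-07). Med7, a Mediator subunit gene, is the annotated neighbour of Havcr2, and the probe sets of adjacent genes could share transcripts.

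In the same ranking the 15 genes with the largest fall were the gate gene Il7r, at -5.08, and Il6ra, St6gal1, Tnfsf8, Trim30c, Dapl1, Treml2, Fcgrt, Nsg2, Plac8, Klra6, Cd163l1, Rnf32, Actn1 and Gpr15, the others from -3.79 to -2.84. Il6ra, the interleukin 6 receptor, read 11.49, 11.65, 11.48 and 11.60 in memory and 7.95, 7.74, 7.65 and 7.71 in PD-1int. The groups were more than 3 log2 units apart on every array, a 13.9-fold lower level in PD-1int (limma adjusted p = 8.90e-16). Tnfsf8, the ligand CD30L, fell by 3.64 on the log2 scale, and Fcgrt, the neonatal Fc receptor, fell by 3.12. Plac8 read 11.03, 11.03, 11.01 and 11.01 in memory and 7.56, 8.47, 8.18 and 7.83 in PD-1int, so the memory arrays were nearly identical and the PD-1int arrays were spread over almost 1 unit. Cd163l1, a scavenger receptor gene, averaged 9.58 in memory, and 6.61, 6.63 and 6.55 in naive, PD-1int and PD-1hi cells, so memory was the brightest subset. Gpr15, a homing receptor, was likewise brightest in memory, at 8.12, against 5.51, 5.28 and 5.34. For both Cd163l1 and Gpr15 memory differed from naive (limma adjusted p = 7.22e-12 and 1.57e-08).

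**Figure D2:**
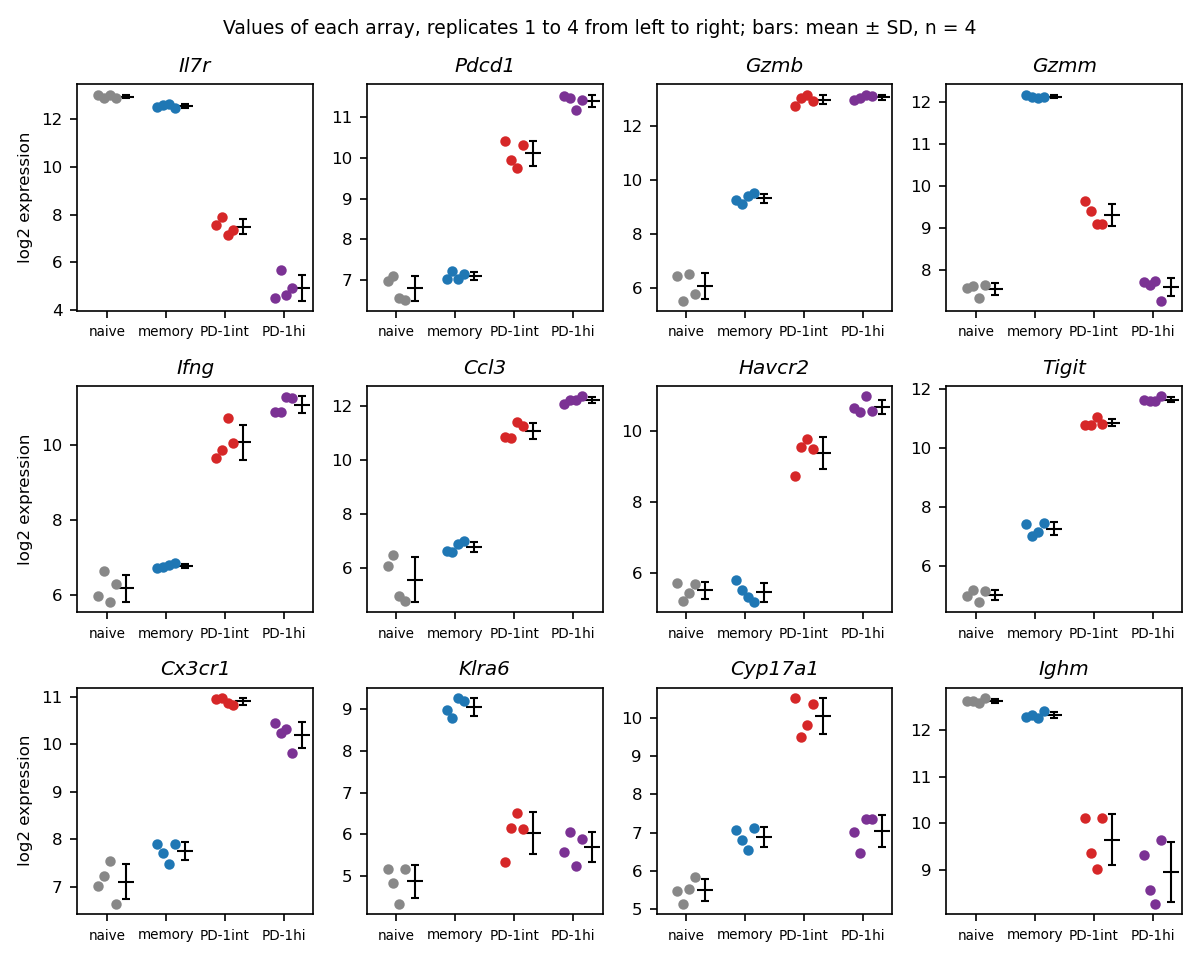
Log2 expression of 12 genes on each of the 16 arrays; points are arrays, replicates 1 to 4 from left to right in each subset, and bars give the mean ± SD (n = 4). Each panel has its own vertical axis, which does not start at 0; in all 12 panels the blue memory points and the red PD-1int points do not overlap.

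Cytotoxic genes mostly rose. Of 21 measured members of the list, 12 rose, 4 fell and 5 did not pass, a share of 76.2% against 16.2% of all genes, and the median difference was 0.41. Gzmb, a granzyme that triggers apoptosis in target cells, read 9.26, 9.12, 9.41 and 9.52 in memory and 12.77, 13.04, 13.16 and 12.94 in PD-1int. That is a 12.5-fold difference with no overlap (limma adjusted p = 1.08e-10). Gzmk read 9.58, 9.69, 9.79 and 9.70 in memory and 12.79, 12.85, 12.97 and 12.83 in PD-1int, and Gzma rose by 3.21 ± 0.21. Neither Gzmb, Gzmk nor Gzma passed the test between PD-1hi and PD-1int (limma adjusted p = 0.875, 0.941 and 0.368). Ifng, the cytokine interferon gamma, read 6.72, 6.75, 6.82 and 6.85 in memory and 9.65, 9.86, 10.72 and 10.06 in PD-1int, 9.78-fold higher. It was higher again in PD-1hi, by 0.99 ± 0.20 (limma adjusted p = 0.00716). Fas ligand (Fasl) rose by 1.42 ± 0.08 and perforin (Prf1) by 0.95 ± 0.11. Serpinb9, an inhibitor of granzyme B, rose by 1.18 ± 0.12.

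Granzyme M went the other way. Gzmm read 12.18, 12.14, 12.09 and 12.12 in memory and 9.65, 9.42, 9.10 and 9.10 in PD-1int, a 7.04-fold lower level (limma adjusted p = 5.56e-11). All 4 memory arrays lay above all 4 PD-1int arrays, and memory was the brightest of the subsets: naive averaged 7.55 and PD-1hi 7.60. The other 3 members that fell were Tnf by 0.61, Lta by 0.44 and Ctsw by 0.28 on the log2 scale. Tnf and Lta encode tumor necrosis factor and lymphotoxin alpha, which lie close together on the chromosome, and Ctsw encodes cathepsin W. Ctsw lost its call in 4 other settings, among them without memory replicate 2, PD-1int replicate 2 or PD-1int replicate 3 (values of -0.26, -0.25 and -0.26).

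Of 13 chemokine genes, 3 rose and 1 fell (30.8% against 16.2% of all genes), and the median difference was -0.0019. Ccl3 read 6.66, 6.60, 6.90 and 7.03 in memory and 10.87, 10.82, 11.41 and 11.26 in PD-1int, and its 19.6-fold difference was the largest of the ranked rises (limma adjusted p = 3.95e-09). Ccl4, its neighbour in the genome and like it an inflammatory chemokine, rose by 2.28 ± 0.21. Ccl5, a further inflammatory chemokine, was bright in both groups and rose by 0.38 ± 0.08 from a memory mean of 13.57. Xcl1, which attracts cross-presenting dendritic cells, fell by 1.35 on the log2 scale (limma adjusted p = 6.50e-04). Among 13 chemokine receptor genes, Ccrl2 and Ccr3 rose and Cxcr4 and Cxcr6 fell (30.8%), and the median of 0.016 turned to -0.33 without the 40% dimmest genes. Cxcr4 read 11.15, 11.13, 10.53 and 10.67 in memory and 10.33, 9.96, 9.56 and 9.44 in PD-1int, without overlap. Cxcr6 averaged 10.01 in memory and 9.27 in PD-1int with overlapping arrays, and 10.4 in PD-1hi. Ccr3 stayed dim, at 4.30 in memory and 5.31 in PD-1int, below the median of every array.

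Inhibitory receptors rose in most cases. Of 18 measured members, 12 rose, 2 fell and 4 did not pass (77.8% against 16.2% of all genes), with a median difference of 0.90. Tigit, a receptor that competes with the activating receptor CD226 for the ligand CD155, read 7.42, 7.01, 7.16 and 7.45 in memory and 10.78, 10.79, 11.04 and 10.84 in PD-1int. Its difference of 3.60 ± 0.11 corresponds to 12.1-fold (limma adjusted p = 2.96e-13). Havcr2, which encodes TIM-3, read 5.81, 5.53, 5.34 and 5.19 in memory, close to the naive mean of 5.52, and 8.75, 9.56, 9.78 and 9.50 in PD-1int. Memory did not differ from naive in Havcr2 by the test (limma adjusted p = 0.926), while Tigit was already higher in memory than in naive (limma adjusted p = 6.69e-11). Cd244a (2B4) rose by 2.98 ± 0.20, Lag3 by 2.93 ± 0.17, Entpd1 (CD39) by 2.54 ± 0.14 and Ctla4 by 2.16 ± 0.13. Of the genes named here, Tigit, Havcr2, Lag3, Entpd1, Ctla4 and Cd244a were all higher in PD-1hi than in PD-1int by the test, with differences from 0.69 for Entpd1 to 1.57 for Lag3.

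The exceptions were Nt5e and Btla. Nt5e encodes CD73, which acts after CD39 in making adenosine from extracellular nucleotides, and it read 10.39, 10.45, 10.17 and 10.49 in memory and 8.90, 8.11, 7.66 and 7.69 in PD-1int. All 4 PD-1int arrays were lower, with a difference of -2.28 ± 0.19 (limma adjusted p = 1.23e-07), and PD-1hi minus PD-1int was -1.81 for Nt5e. CD39 and CD73 thus moved in opposite directions. Btla fell by 1.17 on the log2 scale. Cd160, Pdcd1lg2, Cd274 and Vsir did not pass the test. Cd226, a member of the list of costimulatory receptors, fell by 1.90 ± 0.58 on the log2 scale and was uneven among PD-1int arrays, with an SD of 1.10 (limma adjusted p = 0.0296).

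Transcription factors associated with exhaustion rose in 15 of 19 cases and fell in 1 (84.2% changed, against 16.2% of all genes), with a median of 0.94. Maf, a factor that promotes Il10 and inhibitory receptor genes, read 6.04, 5.69, 5.39 and 6.05 in memory and 9.71, 8.81, 9.63 and 9.63 in PD-1int, 12.6-fold higher (limma adjusted p = 5.95e-10). Tox, which programs the exhausted state in chronic infection, read 8.99, 8.78, 8.71 and 8.93 in memory and 11.23, 10.77, 10.86 and 11.26 in PD-1int, 4.53-fold higher. Tox was lower in memory than in naive, by 0.37 on the log2 scale (limma adjusted p = 0.026). Nr4a2 rose by 2.34 ± 0.17, Irf4 by 2.02 ± 0.18, Bhlhe40 by 1.88 ± 0.13, Prdm1 (Blimp-1) by 1.87 ± 0.24, Nr4a1 by 1.26 ± 0.19 and Batf by 1.03 ± 0.09. Nr4a2 was higher again in PD-1hi, by 1.73 ± 0.17, whereas the test of PD-1hi against PD-1int was not passed by Irf4 or Bhlhe40 (limma adjusted p = 0.396 and 0.0605). Rbpj, the nuclear effector of Notch signalling, was the member that fell, by 0.61 on the log2 scale. Eomes rose by 0.94 ± 0.09, and its T-box partner Tbx21 (T-bet) averaged 10.2 in memory and 9.80 in PD-1int (limma adjusted p = 0.0526).

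Genes of naive and quiescent T cells fell: 14 of 20 were lower, 1 was higher and 5 did not pass, with a median of -0.73, where 7.66% of all genes were lower. Several of them were highest in naive cells. Ccr7, the receptor for homing to lymph nodes, averaged 10.98, 9.88, 7.17 and 6.89 in the order naive, memory, PD-1int, PD-1hi. Dapl1 averaged 11.75, 10.62, 7.12 and 6.66 in that order, and Actn1, which encodes alpha-actinin, 11.51, 10.4, 7.50 and 8.35. Satb1, a chromatin organizer, fell by 2.71 and Lef1, a factor of the Wnt pathway, fell by 1.13 on the log2 scale. St6gal1, a sialyltransferase, read 9.90, 10.11, 9.55 and 9.90 in memory and 6.27, 6.44, 6.20 and 5.72 in PD-1int. The memory values lay around the naive mean of 9.91, and St6gal1 did not differ between memory and naive by the test (limma adjusted p = 0.929). Klf3 rose by 0.28 ± 0.08, a call that was lost in 7 other settings, among them without memory replicate 1, 3 or 4 and without PD-1int replicate 1 or 2 (values from 0.25 to 0.28).

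**Figure D3:**
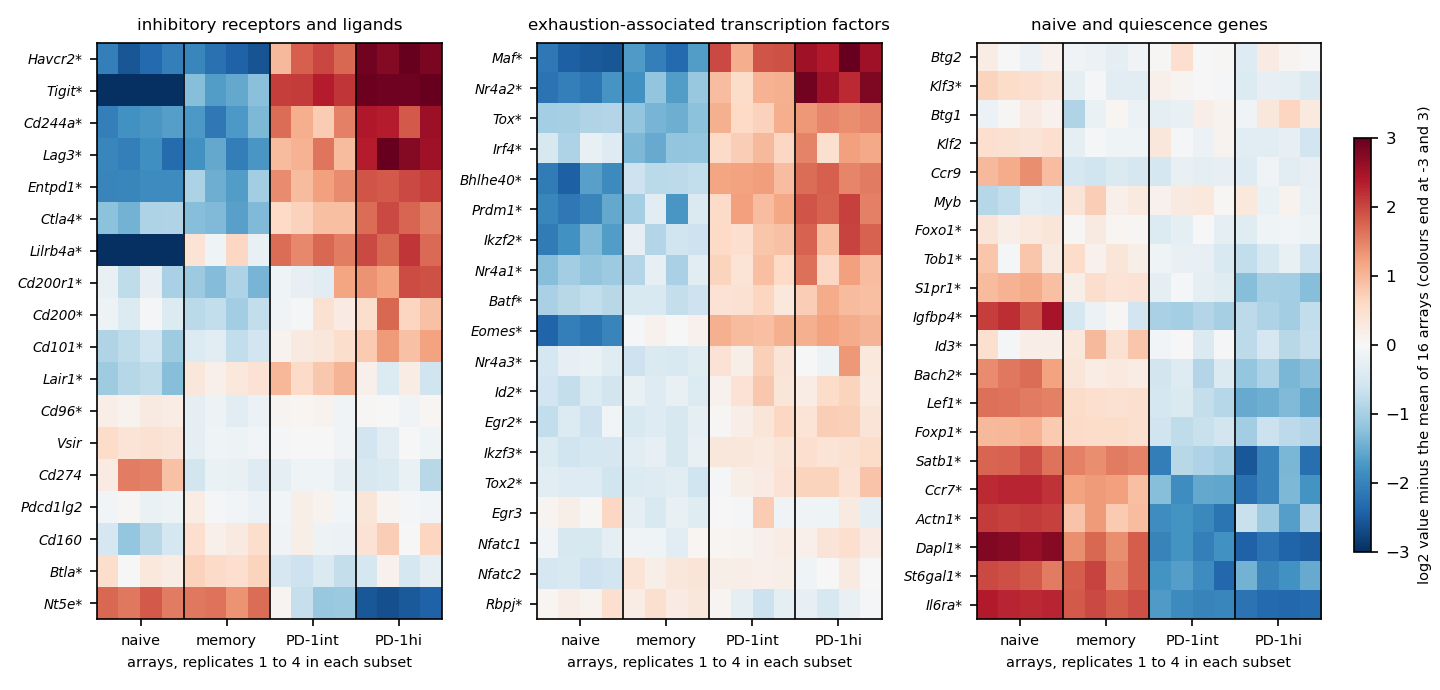
Log2 expression of the measured members of 3 gene lists on each of the 16 arrays, as the difference from the mean of the gene over all arrays; red is higher, blue is lower, and an asterisk marks genes that changed between PD-1int and memory. Havcr2, Tigit and Cd244a are red from PD-1int onward, Nt5e runs the other way, and Il6ra, St6gal1 and Dapl1 are red in naive and memory and blue in both effector subsets.

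Memory-associated genes were split, with 3 of 17 higher, 6 lower and 8 not past the threshold (52.9% changed, against 16.2% of all genes, median -0.15). Il18r1, a receptor chain for interleukin 18, read 10.90, 10.83, 10.73 and 10.98 in memory and 9.02, 9.42, 8.74 and 8.38 in PD-1int, and PD-1hi minus PD-1int was -1.97. Ly6c1 fell by 1.75, its neighbour Ly6c2 by 1.29, Txnip by 0.50 and the survival gene Bcl2 by 0.48 on the log2 scale. Bcl2 arrays overlapped, at 12.73 to 12.99 in memory and 12.81, 12.06, 12.14 and 12.63 in PD-1int. Il10ra rose by 1.41 ± 0.14, Cd7 by 0.65 ± 0.12 and Il15ra by 0.39 ± 0.11. The call on Il15ra was lost in 5 other settings, among them without memory replicate 2 or 3 and without PD-1int replicate 2 or 4 (values of 0.32, 0.35, 0.35 and 0.33). Il2rb, the receptor chain shared by interleukins 2 and 15, was bright in both groups (13.16 and 12.97) and did not pass the test.

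Effector and migration genes rose in 11 of 20 cases and fell in 1 (60.0% against 16.2% of all genes), with a median of 0.48. Klrg1, a marker of terminal effectors, read 6.75, 6.53, 6.78 and 7.69 in memory and 10.13, 10.91, 10.88 and 10.59 in PD-1int, 12.9-fold higher (limma adjusted p = 2.00e-09). Cx3cr1, the fractalkine receptor found on cytotoxic effectors, read 7.91, 7.72, 7.49 and 7.91 in memory and 10.96, 10.97, 10.87 and 10.83 in PD-1int, 8.88-fold higher. Both genes were lower in PD-1hi than in PD-1int, Klrg1 by 0.90 and Cx3cr1 by 0.70 on the log2 scale (limma adjusted p = 0.0324 and 0.0185). S100a4 rose by 1.69 ± 0.18, Anxa2 by 1.26 ± 0.10 and the galectin gene Lgals3 by 1.18 ± 0.14. Itgb1, the beta 1 integrin chain, fell by 0.59 on the log2 scale, although its partner Itga4 rose by 1.90 ± 0.09. The call on Itgb1 was lost without memory replicate 1, PD-1int replicate 3 or PD-1int replicate 4, with values of -0.55, -0.54 and -0.56.

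Of 13 integrin chain genes, 7 rose, 5 fell and 1 did not pass (92.3% changed, against 16.2% of all genes). Integrins are pairs of an alpha and a beta chain that bind matrix or other cells. The chains that rose were Itgad, Itgam, Itga2, Itgav, Itgax, Itgb2 and Itgal, among them all 4 measured alpha partners of the beta 2 chain. Itga4, which also rose, was counted among effector genes and not here. Itgad, the alpha D chain, read 6.26, 6.49, 6.57 and 6.32 in memory and 9.32, 10.04, 10.40 and 10.32 in PD-1int, 12.2-fold higher (limma adjusted p = 1.06e-08). Itgam (CD11b) averaged 6.00 in memory and 7.86 in PD-1int, and Itgax (CD11c) 9.03 and 10.12. Itgb3 fell by 1.68, Itga1 by 0.85 and Itgae, which encodes CD103, by 0.74 on the log2 scale. Itgae was brightest in naive cells, at 10.98, 10.86, 10.86 and 11.14, and ranged from 7.14 to 7.42 in memory. Without memory replicate 3 or without PD-1int replicate 4, 3 chains fell in place of 5 and the call on Itga5 was among those lost.

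In the list of killer lectin-like receptors, 5 of 15 fell and 2 rose (46.7% against 16.2% of all genes). Klrg1, which belongs to the family and rose, was counted among effector genes and not here. The median of -0.36 turned to 0.15 without the 40% dimmest genes, and 2 members then fell. Klra6, a Ly49 receptor, read 8.96, 8.78, 9.25 and 9.19 in memory and 5.34, 6.16, 6.51 and 6.12 in PD-1int, 8.06-fold lower (limma adjusted p = 4.05e-08). Klra9 fell by 2.29, Klra5 by 1.44, Klri2 by 1.17 and Klrb1c by 0.99 on the log2 scale. For Klra6 the naive mean was 4.88, and memory was the brightest of the 4 subsets. Members of the Klra family are near-identical copies, and their probe sets may read each other's transcripts. Klrb1f rose by 2.29 ± 0.28 and Klrk1, which encodes the activating receptor NKG2D, by 1.23 ± 0.21.

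Cytokine receptor genes, in a list that also holds Il10, changed in both directions, 4 of 21 higher and 4 lower (38.1% against 16.2% of all genes, median -0.089). Il4ra fell by 1.87, Il12rb2, the signalling chain of the interleukin 12 receptor, by 1.89 and Il6st (gp130) by 1.55 on the log2 scale. Il6st pairs with Il6ra, so both chains of the interleukin 6 receptor were lower. Il12rb1 rose by 0.88 ± 0.17 and the cytokine gene Il10 by 1.75 ± 0.28. Il10 read 5.51, 5.61, 5.12 and 5.32 in memory and 6.14, 7.72, 7.67 and 7.02 in PD-1int, with PD-1int replicate 1 the lowest of its group. Without memory replicate 1, memory replicate 2 or PD-1int replicate 2, 2 members rose in place of 4. Among costimulatory receptors 6 of 19 rose and 5 fell (57.9% against 16.2%, median 0.17). Tnfrsf9 (4-1BB) read 7.90, 7.77, 7.45 and 7.88 in memory and 9.30, 8.99, 9.30 and 9.58 in PD-1int, 2.91-fold higher. Slamf7 rose by 0.96 ± 0.12, while Tnfrsf26 fell by 2.40, Crtam by 0.81 and Cd69 by 0.73 on the log2 scale.

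Genes of the T-cell receptor complex and proximal signalling rose in 10 of 19 cases and fell in 2 (63.2% against 16.2% of all genes, median 0.22). Ptpn6, which encodes the inhibitory phosphatase SHP-1, read 11.75, 11.58, 11.58 and 11.62 in memory and 10.51, 10.15, 10.21 and 10.27 in PD-1int. It was 2.54-fold lower (limma adjusted p = 3.83e-09), and lower again in PD-1hi by 0.86 log2 units. Ubash3b rose by 0.78 ± 0.10, Fyn by 0.52 ± 0.06 and Dgkz by 0.47 ± 0.06; Dgkz lost its call when its probe sets were averaged (0.22, adjusted p = 0.0586). Feedback regulators rose in 6 of 20 cases and fell in 2 (40%, median 0.28). Rgs1 rose by 1.85 ± 0.22, Dusp1 by 1.32 ± 0.17 and Rgs16 by 1.27 ± 0.17, and Rgs10 fell by 2.04 on the log2 scale. Genes induced early after T-cell receptor triggering rose in 5 of 17 cases and fell in 1 (35.3%, median 0.12). Ier3 rose by 1.42 ± 0.13, Tnfaip3 (A20) by 1.16 ± 0.14, Egr1 by 0.92 ± 0.12 and Junb by 0.57 ± 0.10. Fos, Jun and Fosb differed by 0.12, 0.017 and -0.0025 and did not pass. The member that fell was Myc, which read 10.93, 10.87, 11.01 and 10.91 in memory and 10.08, 9.01, 9.47 and 9.57 in PD-1int. Its level was 2.63-fold lower, without overlap (limma adjusted p = 3.08e-05).

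Mitotic genes rose almost throughout the list. Of 38 measured, 34 rose, 1 fell and 3 did not pass (92.1% against 16.2% of all genes), with a median of 1.03; arrays of the groups did not overlap, with PD-1int higher, in 25 of them (10.9% of all genes). Many such genes share short promoter elements: the cell-cycle genes homology region (TTTGAA), bound by complexes that repress them in resting cells, and the CCAAT box, bound by NF-Y. Promoters from RefSeq (GRCm38.p6, from 250 bases before to 50 after the annotated start) were given for 33 of the 38 genes, and TTTGAA on either strand was in 25 of them (75.8%), against 2690 of 16990 promoters of all measured genes (15.8%). CCAAT, or ATTGG on the other strand, was in 22 of the 33 (66.7%), against 38.5% of all. A match is a description of the letters, not a shown binding site. Most of the 25 promoters had no TTTGAA within the 120 bases before the start, a shorter stretch than the one searched. These 120 bases are printed below for 4 mitotic genes that rose, with matches in capitals, because they show both elements close to the start.
Cdk1, chr10:69352913-69353032, minus strand: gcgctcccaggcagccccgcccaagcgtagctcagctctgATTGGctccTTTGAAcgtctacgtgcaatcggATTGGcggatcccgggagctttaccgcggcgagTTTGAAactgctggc
Top2a, chr11:99024190-99024309, minus strand: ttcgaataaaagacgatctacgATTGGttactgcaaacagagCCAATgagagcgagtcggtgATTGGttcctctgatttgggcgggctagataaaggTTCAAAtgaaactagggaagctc
Kif11, chr19:37376262-37376381, plus strand: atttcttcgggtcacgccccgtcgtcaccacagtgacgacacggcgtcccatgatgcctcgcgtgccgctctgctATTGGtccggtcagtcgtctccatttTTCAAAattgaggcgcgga
Cdc20, chr4:118437344-118437463, minus strand: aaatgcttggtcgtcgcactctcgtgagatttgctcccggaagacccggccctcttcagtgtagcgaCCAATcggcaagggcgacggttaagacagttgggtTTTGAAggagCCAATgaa
In these, TTCAAA and ATTGG are the same elements read from the other strand.

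Cdk1, the mitotic kinase, rose by 1.29 ± 0.25, Top2a, a topoisomerase, by 1.04 ± 0.24, Kif11, a spindle motor, by 1.36 ± 0.25 and Cdc20, an activator of the anaphase-promoting complex, by 0.82 ± 0.18. Ccnb2, a B-type cyclin, read 9.17, 7.95, 7.54 and 8.96 in memory and 9.83, 10.36, 10.18 and 10.05 in PD-1int, 3.25-fold higher (limma adjusted p = 1.34e-04). Mki67, the proliferation marker Ki-67, read 10.67, 9.25, 9.52 and 10.42 in memory and 11.16, 11.63, 11.50 and 11.51 in PD-1int, 2.80-fold higher. The memory arrays fell into 2 pairs in both genes, replicates 1 and 4 above replicates 2 and 3. The mean of the whole list, each gene centred on its mean over 16 arrays, gave the same picture: 0.17, -0.83, -0.88 and -0.013 in memory and 0.35, 0.79, 0.60 and 0.73 in PD-1int. All 4 PD-1int arrays were above all 4 memory arrays, with memory replicate 1 and PD-1int replicate 1 nearest to each other. Between 28 and 36 members rose when each array was left out in turn, the fewest without memory replicate 2, memory replicate 3 or PD-1int replicate 4 and the most without memory replicate 1. Smc4, a condensin subunit, was the member that fell, by 0.36 on the log2 scale.

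DNA replication genes rose in 22 of 42 cases and fell in 2 (57.1% against 16.2% of all genes, median 0.43). Rrm2, a ribonucleotide reductase subunit, rose by 1.19 ± 0.23, the origin licensing factor Cdc6 by 1.12 ± 0.25, Tk1 by 1.00 ± 0.18, Mcm5 by 0.83 ± 0.16 and Chaf1a by 0.75 ± 0.13. Rfc1 and Pold2 fell by 0.45 and 0.28 on the log2 scale. Pold2 lost its call with a replicate block and when any array but memory replicate 3 was left out (values from -0.30 to -0.26). Memory was uneven here too, with list means of 0.11, -0.39, -0.40 and 0.078 on its arrays. Those of PD-1int were 0.25, 0.36, 0.28 and 0.39, and 14 members rose without memory replicate 2. In naive cells replicates 1 and 4 were again above 2 and 3 (-0.77, -0.92, -0.87 and -0.71). PD-1hi ran the same way (0.86, 0.50, 0.52 and 0.71), and PD-1int did not. The E2F motif, searched as TTTCCCGC, TTTGGCGC, TTTCGCGC and TTTGCCGC on both strands, was in 15 of 36 promoters of this list (41.7%), in 2 of 33 mitotic promoters and in 2.93% of all promoters. TTTGAA was in 4 of the 36 (11.1%) and CCAAT in 23 (63.9%), a share close to that of the mitotic promoters. The promoters of Mcm6, a subunit of the replicative helicase, and Dtl, which directs the destruction of the licensing factor Cdt1, show the E2F and CCAAT matches. Most of the 15 promoters had no E2F match in the 120 bases printed. Gins3, Orc1 and Rfc3, which had 1 there, did not pass the test.
Mcm6, chr1:128359706-128359825, minus strand: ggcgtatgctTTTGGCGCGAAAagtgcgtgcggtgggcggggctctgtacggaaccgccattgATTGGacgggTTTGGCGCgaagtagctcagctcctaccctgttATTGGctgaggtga
Dtl, chr1:191575545-191575664, minus strand: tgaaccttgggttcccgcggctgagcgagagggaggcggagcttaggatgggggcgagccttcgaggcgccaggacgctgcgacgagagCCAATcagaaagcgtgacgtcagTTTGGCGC
Mcm6 rose by 0.53 ± 0.12 and Dtl by 0.83 ± 0.23.

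Regulators of G1 and quiescence rose in 13 of 20 cases and fell in 2 (75.0% against 16.2% of all genes, median 0.76), and they include brakes as well as drivers of the cycle. Cdkn1a, the inhibitor p21, read 6.98, 7.19, 7.05 and 6.96 in memory and 8.69, 8.68, 8.93 and 8.74 in PD-1int, 3.28-fold higher (limma adjusted p = 8.68e-07). Rbl2, the pocket protein p130 of resting cells, rose by 1.08 ± 0.09 and Rb1 by 0.74 ± 0.10. Of the E2F family, the activator E2f2 rose by 1.17 ± 0.17 and the repressors E2f7 and E2f8 by 1.21 ± 0.16 and 1.76 ± 0.34. Cdk4 fell by 0.42 and Ccnd2 (cyclin D2) by 0.31 on the log2 scale; without PD-1int replicate 2, Ccnd2 lost its call at -0.26.

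**Figure D4:**
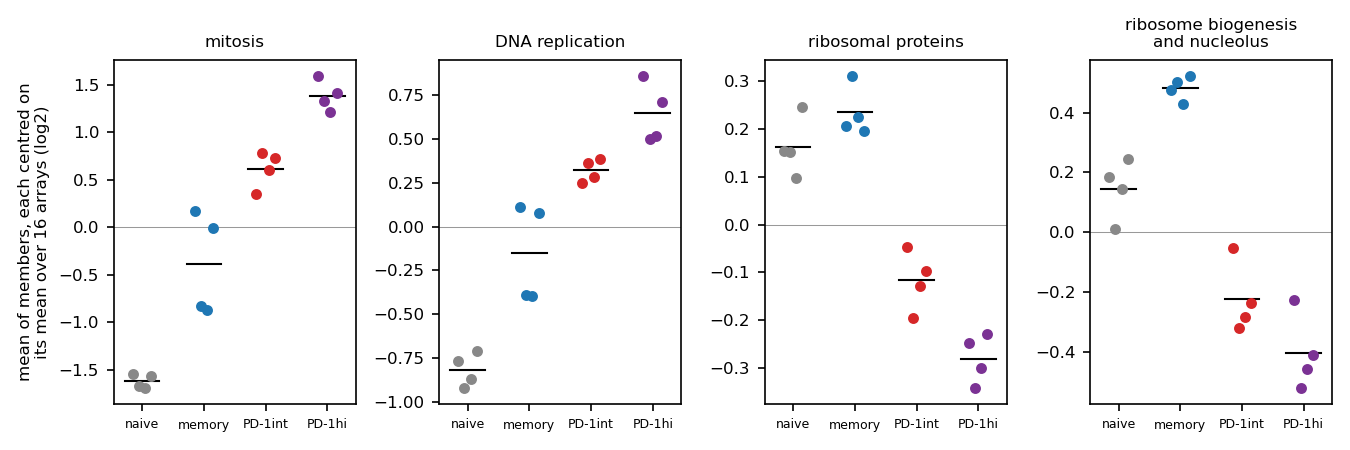
Mean log2 expression of the members of 4 gene lists on each of the 16 arrays, each gene centred on its mean over all arrays; points are arrays and horizontal lines are subset means, and the vertical axes differ in scale. The mitosis and DNA replication means rise from naive to PD-1hi. In both lists replicates 1 and 4 lie above 2 and 3 in memory and, by less, in naive and PD-1hi. The ribosomal protein and ribosome biogenesis means are higher in memory than in PD-1int on every array.

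Ribosomal protein genes fell in 22 of 32 cases and rose in none (68.8% against 16.2% of all genes), by a median of 0.30 on the log2 scale. The count of members lower ranged from 18 to 23 over the other settings. Rps19 read 12.27, 12.43, 12.24 and 12.26 in memory and 11.74, 11.54, 11.54 and 11.58 in PD-1int, 1.62-fold lower (limma adjusted p = 1.44e-05). Rps24 fell by 0.78, Rpl14 by 0.54, Rpl13 by 0.51 and Rpl35 by 0.51 on the log2 scale. Ribosomal protein genes have many processed copies in the genome, and their probe sets may read more than 1 of them.

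Metabolic lists changed less evenly. Glycolysis genes rose in 4 of 19 cases and fell in 3 (36.8% against 16.2% of all genes, median 0.092). Hif1a, the hypoxia-inducible regulator of this pathway, rose by 0.62 ± 0.09, the glucose transporter Slc2a3 by 0.56 ± 0.09 and Pkm by 0.40 ± 0.07. Pdk1, the kinase that shuts pyruvate dehydrogenase, read 8.59, 8.55, 8.68 and 8.81 in memory and 7.43, 7.12, 7.22 and 7.22 in PD-1int, 2.66-fold lower. The lactate transporter Slc16a1 fell by 0.88 on the log2 scale. Oxidative phosphorylation genes did not pass in 30 of 32 cases. Ndufa10 and Sdha fell by 0.32 and 0.24 on the log2 scale, and 6.25% changed, below the 16.2% of all genes. By array overlap the list was not below all genes. Arrays did not overlap in 5 of the 32 with PD-1int higher and in 7 with PD-1int lower, against 10.9% and 9.75% of all genes. Sdha lost its call with the block on the 8 arrays, after median centring and when any array but memory replicate 3 was left out, which leaves 1 member lower. Cholesterol synthesis genes rose in 10 of 19 cases and none fell (52.6%, median 0.37), among them Sqle by 0.93 ± 0.19, Dhcr7 by 0.60 ± 0.12 and Ebp by 0.50 ± 0.09.

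Interferon-stimulated genes rose in 7 of 31 cases and fell in 6 (41.9% against 16.2% of all genes, median 0.078). Oasl2, Oas3 and Oas2, of the oligoadenylate synthetase family, fell by 1.96, 0.93 and 0.82 on the log2 scale and Usp18, which dampens interferon receptor signalling, by 1.24. Tap1, the peptide transporter of antigen presentation, rose by 0.49 ± 0.07, Zbp1 by 0.81 ± 0.11 and Gbp3 by 0.92 ± 0.15. Usp18 read 9.65, 9.69, 9.57 and 9.48 in memory and 8.33, 8.28, 8.34 and 8.49 in PD-1int. Heat shock and unfolded protein genes rose in 7 of 23 cases and fell in 1 (34.8% against 16.2%, median 0.24). Xbp1, a factor of the unfolded protein response, rose by 0.56 ± 0.10 and the chaperone genes Dnajb11 and Hsp90b1 by 0.57 ± 0.11 and 0.41 ± 0.06, while Herpud1 fell by 0.37 on the log2 scale with overlapping arrays, a call lost without memory replicate 4 or PD-1int replicate 2 (values of -0.35 and -0.28).

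Apoptosis regulators rose in 5 of 21 cases and fell in 2 (33.3% against 16.2% of all genes, median 0.16). The largest rises were in the inflammatory caspases, Casp4 at 2.56 ± 0.16 and its neighbour Casp1 at 2.45 ± 0.16. Casp1 read 8.44, 8.73, 8.27 and 8.97 in memory and 10.89, 11.19, 11.10 and 11.03 in PD-1int, 5.46-fold higher (limma adjusted p = 6.72e-09). Bcl2a1a, a survival member of the BCL2 family with near-identical copies, rose by 1.69 ± 0.15 and Pmaip1 (Noxa), a member that promotes death, by 1.04 ± 0.13. Bbc3 (Puma) fell by 1.20 and the death receptor gene Tnfrsf10b by 1.34 on the log2 scale. Of 9 T-cell identity genes 4 rose and 1, Cd8b1, fell (55.6% against 16.2% of all genes, median 0.047). Runx1 rose by 1.26 ± 0.12, Ets1 by 0.47 ± 0.07, Bcl11b by 0.34 ± 0.09 and Runx3 by 0.28 ± 0.07.

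**Figure D5:**
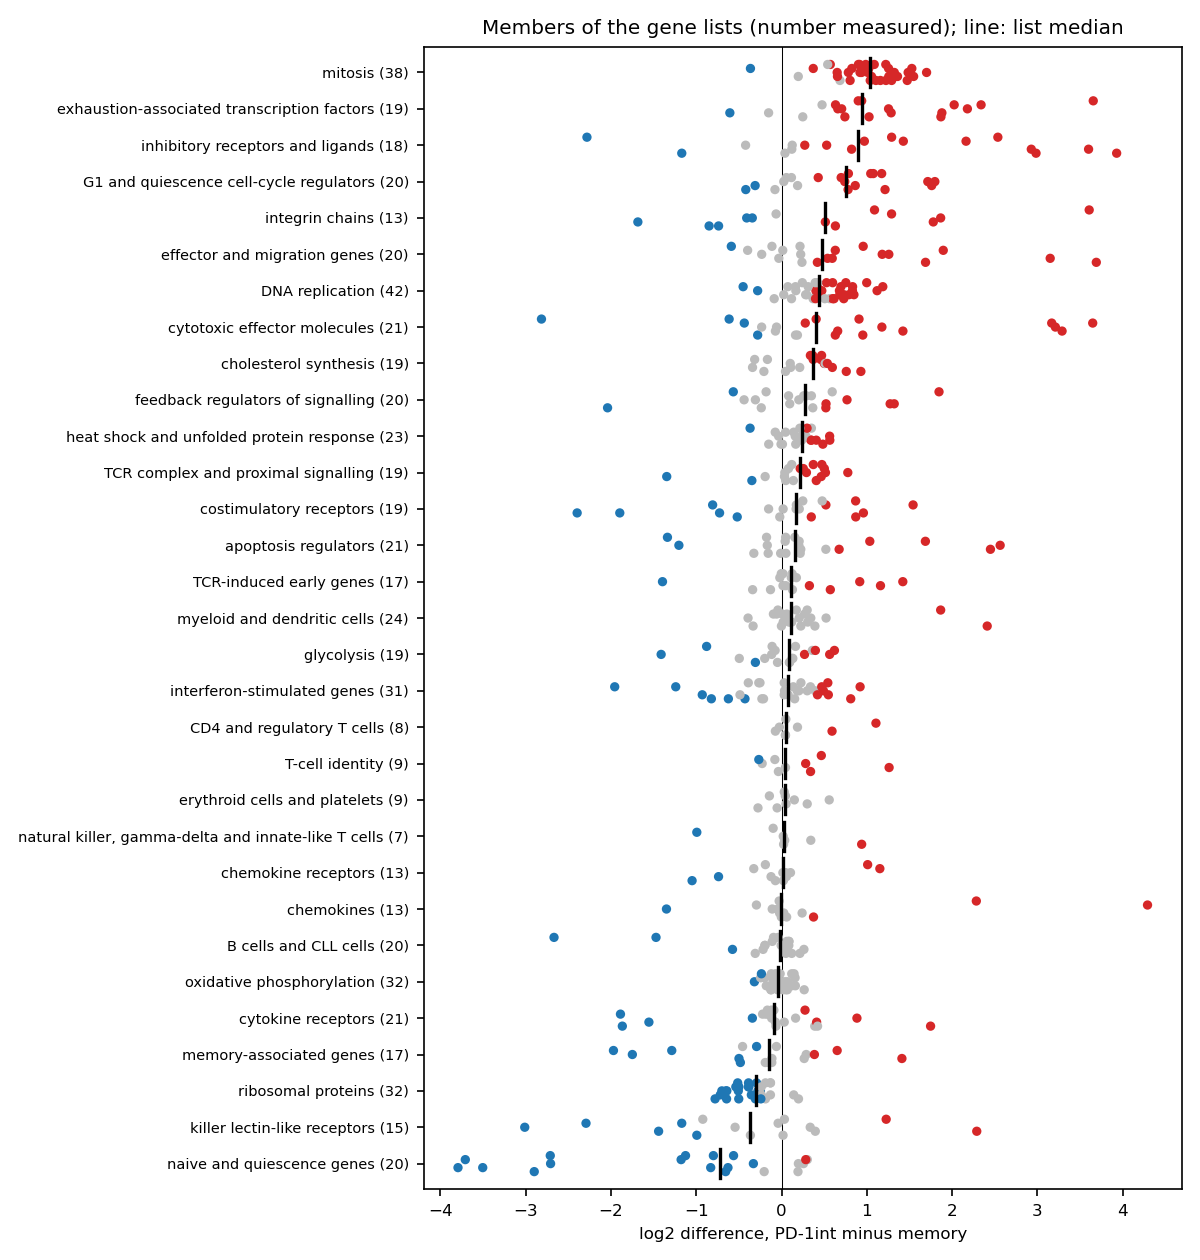
Difference in log2 expression, PD-1int minus memory, of each measured member of 31 gene lists, ordered by list median; red members rose, blue members fell, grey members did not pass the threshold, and black bars are list medians. The mitosis median lies at 1.03 and the median of naive and quiescence genes at -0.73, and most lists hold members on both sides of 0.

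Markers of other cells were set beside these results. Of 20 markers of B cells and CLL cells, none rose and 3 fell (15%, close to the 16.2% of all genes): Ighm fell by 2.67, Cd22 by 1.47 and Cd79b by 0.57 on the log2 scale. Ighm, the immunoglobulin mu gene, read 12.27, 12.32, 12.26 and 12.40 in memory and 10.10, 9.36, 9.01 and 10.11 in PD-1int, and it averaged 12.63 in naive and 8.95 in PD-1hi. The defining B-cell genes Cd79a and Ms4a1 were dim in both groups, at 6.12 and 5.32 in memory and 6.24 and 5.54 in PD-1int, and did not pass. The log2 of the summed linear levels of the 20 markers ranged from 12.8 to 13.0 in memory and from 11.1 to 11.6 in PD-1int. Ighm made up most of this sum in memory. Mean log2 levels of the 20 markers overlapped, at 6.44 to 6.76 in memory and 6.17 to 6.51 in PD-1int. The part of B-cell or CLL RNA in genes lower in PD-1int was not tested.

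Of 24 myeloid and dendritic markers 2 rose and none fell (8.33%, below the 16.2% of all genes), Cd68 by 2.41 ± 0.17 and Itgam by 1.87 ± 0.20. This share depends on the markers listed. Itgax (CD11c), which rose, and Cd80 and Cd86 are not on the list. Cd80 read 5.45 to 6.05 in memory and 6.97 to 8.89 in PD-1int, and Cd86 6.17 to 7.52 and 8.50 to 8.83. Cd68 read 8.45, 8.32, 8.41 and 8.37 in memory and 10.61, 10.88, 10.98 and 10.72 in PD-1int. The defining genes Lyz2 and Csf1r were at 5.90 and 6.30 in memory and 6.20 and 6.38 in PD-1int, at or below the array medians of 6.39 to 6.49, and did not pass. The log2 of the summed levels of this list ranged from 11.8 to 11.9 in memory and from 12.4 to 12.5 in PD-1int, and 4 markers rose when PD-1int replicate 3 or memory replicate 4 was left out. Of 8 markers of CD4 and regulatory T cells, 2 rose and none fell (25% against 16.2% of all genes). Izumo1r (folate receptor 4) rose by 1.11 ± 0.11 and Tnfrsf8 (CD30) by 0.59 ± 0.17. Tnfrsf8 lost its call without memory replicate 4, PD-1int replicate 1 or PD-1int replicate 4 (values of 0.54, 0.52 and 0.47). Foxp3 and Cd4 did not pass, at 6.30 and 5.97 in memory and 6.23 and 6.02 in PD-1int. Summed levels of this list ranged from 9.84 to 9.98 in memory and from 10.33 to 10.47 in PD-1int. None of 9 erythroid and platelet markers passed, and their summed levels were 10.07 to 10.22 in memory and 9.97 to 10.29 in PD-1int. Of 7 markers of innate-like, gamma-delta and natural killer cells, Eomes rose and Klrb1c (NK1.1) fell (28.6% against 16.2% of all genes). Klrb1c fell by 0.99 on the log2 scale, while Ncr1 and Zbtb16 did not pass. Their summed levels were 10.70 to 10.82 in memory and 11.39 to 11.52 in PD-1int. Eomes made up most of these sums, at 10.14 to 10.33 in memory and 11.09 to 11.27 in PD-1int. Mean log2 levels of the 7 markers overlapped, at 6.63 to 6.81 in memory and 6.77 to 6.82 in PD-1int. The part of RNA from these cells in the results was not tested.

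PD-1hi cells give the position of PD-1int cells within the series. The comparison of PD-1hi with PD-1int and that of PD-1int with memory share the PD-1int arrays, so their values are set side by side only. The first of these changed 734 genes (3.31%), and 2601 (11.7%) changed between memory and naive. Among the 15 genes with the largest rise, Ccl3 was 1.15 ± 0.27 higher in PD-1hi and Maf 0.93 ± 0.20 higher, whereas Cyp17a1, Klrg1 and Cx3cr1 were lower in PD-1hi. Gzma, Gzmb, Gzmk, Car5b, Itgad and Cers6 did not pass that test. Among those with the largest fall, Il6ra, Trim30c, Dapl1, Treml2 and Fcgrt were lower again in PD-1hi, and Actn1 was 0.85 ± 0.16 higher. St6gal1, Tnfsf8, Nsg2, Plac8, Klra6, Cd163l1, Rnf32 and Gpr15 did not pass.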

How the data were processed

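RNA from sorted splenic CD8 T cells was hybridised to Affymetrix Mouse Gene 2.0 ST arrays, per the labels' protocols (RNeasy Micro extraction, WT Pico labelling). The authors deposited 1 table of log2 values for 41345 probe sets and 16 arrays, made with Affymetrix Power Tools per the submitters' processing notes; no source used here names the summarisation method, the tool's version or the genome build (not given in the sources used here). These values were used without further normalization. Array medians lay between 6.39 and 6.49 and values between 2.35 and 14.1; the files used here hold no detection calls, so a dim gene has no floor, and 4 arrays a subset limit the precision.

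Probe sets were named from the platform annotation: 23521 had 1 gene symbol, 1814 had several and 16010 had none. Of the first, 23328 matched RefSeq by Entrez identifier, which changed 0 symbols. The brightest probe set stood for each of 1082 genes with more than 1, which left 22180 genes.

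With R 4.3.3 and limma 3.58.1, a mean per subset was fitted to all 16 arrays (lmFit, eBayes, no block), so that the subsets share 1 estimate of the spread, and p-values were adjusted by Benjamini-Hochberg over all genes. In data simulated for this comparison, 56 of 100 genes changed by 0.5 and 98 of 100 changed by 1 on the log2 scale were recovered, with 6 false calls among 21980 others. That simulation drew noise independently for every value, with no structure shared by arrays. Far more genes changed in the real data, so these rates may not carry over.

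Genes were named if they ranked among the top 15 by rise, or the top 15 by fall, of changed genes with arrays that do not overlap, the gate genes, and in each list up to 5 members of smallest adjusted p with up to 4 changed in the less common direction. That ranking skipped antigen receptor segments, small RNAs and predicted loci. Genes named outside this rule were chosen after their values were seen. The comparison, its members and the gene lists were chosen with earlier results of these data known. Alternatives covered the arrays in the fit, a replicate block, dim genes, probe sets, scaling, the variance model and each array left out in turn. Sequences are from RefSeq (GRCm38.p6).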

Additional observations from a re-analysis of the deposited data

Results flagged for a closer look

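In 23 of 452 groups of 4 values, 1 array lay far from the other 3 by Dixon's test, and chance alone flags about 1 in 20 groups. Among PD-1int arrays, replicate 2 was low in Maf (8.81 against 9.63 to 9.71) and high in Itgb3 (7.36 against 7.01 to 7.06) and Xbp1 (9.76 against 9.57 to 9.59). Replicate 3 was low in Treml2 (6.20 against 7.16 to 7.30) and high in Lag3 (10.33 against 9.66 to 9.75). Replicate 1 was low in Cep55 (7.65 against 8.12 to 8.18) and Msmo1 (8.02 against 8.24 to 8.25) and high in Rpl13 (12.83 against 12.66 to 12.67). Replicate 4 was low in Ccl5 (13.83 against 13.98 to 13.99) and Ndufa10 (10.87, with the highest at 11.02).

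Among memory arrays, replicate 2 was low in S100a4 (9.43 against 10.33 to 10.44) and high in Fcgrt (11.03 against 10.74 to 10.78), Klf3 (11.12 against 10.86 to 10.87), Fyn (11.37 against 11.32 to 11.33) and Rps19 (12.43 against 12.24 to 12.27). Replicate 1 was high in Rnf32 (8.33 against 7.88 to 7.92) and low in Ccl5 (13.46 against 13.59 to 13.61). Replicate 3 was low in Ctla4 (6.01 against 6.30 to 6.35) and Itgae (7.14 against 7.37 to 7.42) and high in Zbtb16 (6.96 against 6.36 to 6.42). Replicate 4 was high in Bbc3 (7.88 against 7.61 to 7.63). The mean of the feedback regulators was low in memory replicate 3 (-0.17 against -0.10 to -0.086), and the mean of the natural killer and innate-like markers in memory replicate 2 (-0.015 against 0.13 to 0.16).

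Probe sets with no gene symbol lay outside the comparisons above. Of 16010, 726 passed the same threshold (4.53%), 336 higher and 390 lower in PD-1int, and 154 by at least 2-fold. The largest rise was 3.49 and the largest fall -2.72 on the log2 scale.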

How the results depend on the processing

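No named gene past the threshold changed sign. Counts of genes higher and lower stayed within 1.5 times of 1884 and 1700 under every alternative run. They were 1949 and 1778 from the 8 arrays alone, 1976 and 1742 without the 40% dimmest genes, 1847 and 1669 with probe sets averaged (2 calls changed sign), 1816 and 1817 after quantile normalization, 1862 and 1575 after median centring, 1938 and 1724 with trend and robust settings and 2071 and 1894 with array weights. With 1 array left out, 1530 to 1756 genes were higher and 1456 to 1616 lower, 296 to 358 and 257 to 283 by at least 2-fold, and 2933 to 3160 of the 3584 calls were kept. All 41345 probe sets, an alternative chosen after seeing the data, gave 2052 and 2059. With the replicate number as a block, counts were 1866 and 1710 on 16 arrays (3408 calls kept) and 1796 and 1696 on the 8. Sample titles repeat the same numbers in every subset but do not say what a number marks. Deviations of same-numbered memory and PD-1int arrays correlated at -0.041, -0.023, 0.11 and 0.15, which cannot decide whether the numbers are pairs. The main fit used no block. Mitosis and DNA replication list means followed the replicate number in memory, naive and PD-1hi, which that fit does not take into account. Of 174 named genes past the threshold, 15 lost the call in at least 1 setting, and 10 others gained it, Cd44 among them. The chemokine receptor median of 0.016 was -0.33 without the dimmest genes; 8 killer receptors fell in place of 5 with the block on the 8 arrays. The causes were not tested. Dim genes have no detection call, which limits their fold changes.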

Other observations

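Groups of genes in this section were chosen after their values were seen, so their counts are descriptions. Genes of ribosome biogenesis and the nucleolus, where ribosomal RNA is made and processed, were lower in PD-1int in 34 of 36 measured cases and higher in none, with a median difference of -0.64 (16.2% of all genes changed). Gnl3 (nucleostemin) read from 10.53 to 10.79 on the memory arrays and from 8.92 to 9.64 on the PD-1int arrays, without overlap. Dkc1, the pseudouridine synthase dyskerin, fell by 1.46, Gpatch4 by 1.37, Utp20 by 1.09 and the RNA methyltransferase gene Nop2 by 1.04 on the log2 scale. Canonical histone genes went the other way, with 7 of 10 higher and none lower (median 1.17), among them the linker histone H1f5 at 2.12 ± 0.31 and H2bc12 at 2.10 ± 0.24. Copies of histone genes are similar, and their probe sets may read each other.

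Of 472 microRNA genes measured, 8 rose and 16 fell, a share of 5.08% that is below the 16.2% of all genes. The probe sets read hairpin or host RNA and not the mature form. Mir146, whose product is known to dampen NF-kB signalling by targeting Traf6 and Irak1, read 3.87, 3.26, 3.39 and 3.47 in memory and 4.70, 5.85, 5.89 and 5.79 in PD-1int, a difference of 2.06 ± 0.25 (limma adjusted p = 9.70e-06). All PD-1int arrays were higher, although the gene stayed below the median of every array. Its mature sequence is shown with the seed, bases 2 to 8, in capitals.
mmu-miR-146a-5p, chr11:43374435-43374456, minus strand: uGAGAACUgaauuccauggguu

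Some changed genes lay side by side. Of 22109 genes placed in RefSeq order, 45 adjacent pairs both changed by at least 2-fold, 42 of them in the same direction; the number that chance placement would give was not computed. They include Itgam, Itgax and Itgad, Casp1 and Casp4, Ccl3 and Ccl4, and Gzma, Gzmk and Esm1. The 3 pairs in opposite directions were Ms4a4a (2.09) and Ms4a4c (lower), Kif5c (1.53) and Lypd6b (-1.90), and Fabp5 (2.04) and Pag1 (-1.37).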
